A study of Rattus norvegicus with 8 samples.

Results

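The 42 genes described here carry out or control fatty acid oxidation in the heart. They cover the carnitine shuttle, the enzymes of beta oxidation, electron transfer, thioesterases and uncoupling proteins, ketone use, malonyl-CoA, lipid droplet turnover and the PPAR regulators. They were taken from a list of named genes, and a gene was measured by the mean of the probe sets annotated to it alone. All 42 were measured, with 3 to 47 probe sets each and 470 in all, out of 17309 genes on the array. RNA came from left ventricle muscle of 8 rats, all males at 2 months of age, with 1 array per animal. 4 animals were PD5, a minimal congenic strain, in which a short chromosome segment differs from the SHR background, and 4 were SHR, the spontaneously hypertensive rat. Both strains were bred in the same house, ate standard chow, had a light period of 12 h a day and received no treatment. Where the PD5 segment lies is not stated in the labels, which also name no litter or batch, and whole ventricular muscle holds several cell types. All PD5 animals carry lower numbers than the SHR animals, so number order and strain cannot be told apart. All 8 rats carry the SHR background, so genes that make SHR hypertensive outside the segment are shared by both groups.

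Heart muscle draws most of its energy from fatty acids. Long-chain fatty acids are bound to carnitine to enter mitochondria, are shortened there by repeated cycles of beta oxidation, and pass their electrons to the respiratory chain through electron transfer flavoprotein. Nuclear receptors of the PPAR family, paired with the retinoid X receptor and helped by the coactivators PGC-1 alpha and PGC-1 beta, switch on many of these genes when fatty acids are plentiful, as in fasting. Ketone bodies are a further fuel that the heart takes from blood.

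The labelled tissue matched its markers, with the mean of 10 cardiomyocyte markers between 12.62 and 12.71 on the log2 scale in PD5 and between 12.62 and 12.72 in SHR. Array medians ranged from 6.93 to 6.98. PD5 210 stood apart for some fat genes: Ucp1, the uncoupling protein of brown fat, was at 9.05 there, at 3.79 to 4.83 in the other 3 PD5 animals and at 4.06 to 4.77 in SHR. The white fat gene Adipoq was at 7.70 in PD5 210 and at 5.89 to 6.65 in the other 7 animals. Of the 6 brown fat markers Ucp1 alone was far higher there: Elovl3, Dio2 and Zic1 lay within the range of the other animals, Ebf2 was lowest of the PD5 animals and Cidea was 11.22, against 10.82 to 11.14 elsewhere. Their mean was 7.20 in PD5 210 and 6.24 to 6.46 in the other PD5 animals, against 6.30 to 6.49 in SHR. Of the 6 white fat markers Adipoq, Plin1, Cidec and Retn were highest in PD5 210, while Lep and Cfd were not. Their mean was 6.55 in PD5 210 and 5.78 to 5.81 in the other PD5 animals, against 5.77 to 5.95 in SHR. The mean of 6 macrophage markers was lower in PD5 (8.01 to 8.03) than in SHR (8.08 to 8.35, highest in SHR 219). Of the 6, 5 were lower in PD5 and Cd68 was higher, and the strains overlapped in each. The largest log2 differences, PD5 minus SHR, were -0.41 for Cd163 and -0.28 for Mrc1, while Cd68 was at 0.05. The mean of 4 atrial markers ranged from 8.58 to 9.71 in PD5 and from 7.78 to 10.03 in SHR. The part of these differences in the results below was not tested, and in whole tissue a smaller share of a cell type and less RNA per cell cannot be told apart.

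None of the 42 genes differed between the strains past the threshold. Differences are given as PD5 minus SHR on the log2 scale, from limma fitted on all 17309 genes, with the two-sided p adjusted by Benjamini-Hochberg over all of them and a threshold of 0.05. In that fit 9 genes passed, which is 0.052% of all genes (0.0289% lower and 0.0231% higher in PD5), and 0 of the 42 genes did. Their adjusted p ranged from 0.873 for Ppard to 0.997 for Angptl4. At an unadjusted p under 0.05 there was 1 gene, Ppard, lower in PD5, which is 2.38% of the 42, where 5.68% of all genes lay under it in either direction. In 1 gene, Acadm, all 4 PD5 animals lay below all 4 SHR animals, again 2.38%, against 1.88% of all genes. In 0 of the 42 did all PD5 animals lie above, against 1.58%, and over both directions the share of all genes was 3.46%. With all 8 arrays both shares were near or under the background. With a trended robust variance model 3 of the 42 genes, Acadm, Acads and Ppard, were lower at an unadjusted p under 0.05, which is 7.14%, against 2.95% of all genes (5.82% in either direction), and 0 passed the adjusted threshold.

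The count of genes with the groups apart depended on single arrays. Without PD5 207 it was 5 of 42 (11.9%, against 3.27% of all genes), namely Acadl, Acadm, Acat1, Etfa and Ppard. Without PD5 210 it was also 5 (11.9%, against 3.94%), namely Acadm, Acads, Cpt2, Plin5 and Ucp3. Ppargc1a alone then had the PD5 animals all above (2.38%, against 3.09% of all genes). Without both PD5 210 and SHR 219 it was 7 (16.7%, against 5.45%). Acadm was among them in each of these cases, and all these genes were named after their values were seen. In 0 of these cases did any of the 42 genes pass the adjusted threshold in limma.

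The differences were small and their intervals narrow. In 35 of the 42 genes the difference was under 0.1 in size, against 65.3% of all genes. The 95% interval excluded a 1.25-fold change in either direction (0.32 on the log2 scale) in 37 of the 42 genes, or 88.1%, against 58.0% of all genes. The 5 genes whose interval reached further were Acot1, Ucp3, Angptl4, Ppargc1a and Bdh1, and Acot1 alone reached beyond a 1.5-fold change. The listed genes also varied little between animals of one strain, with a median within-strain SD of 0.09 against 0.14 over all genes. Many of them were bright, with level percentiles among all genes of 99.3 for Cpt1b and 99.7 for Acadl and Oxct1. The dim gene Acot1 was at 5.3. The shares and the SD of all genes include dim genes and were not matched for level, so the part of brightness in these contrasts was not tested.

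**Figure D1:**
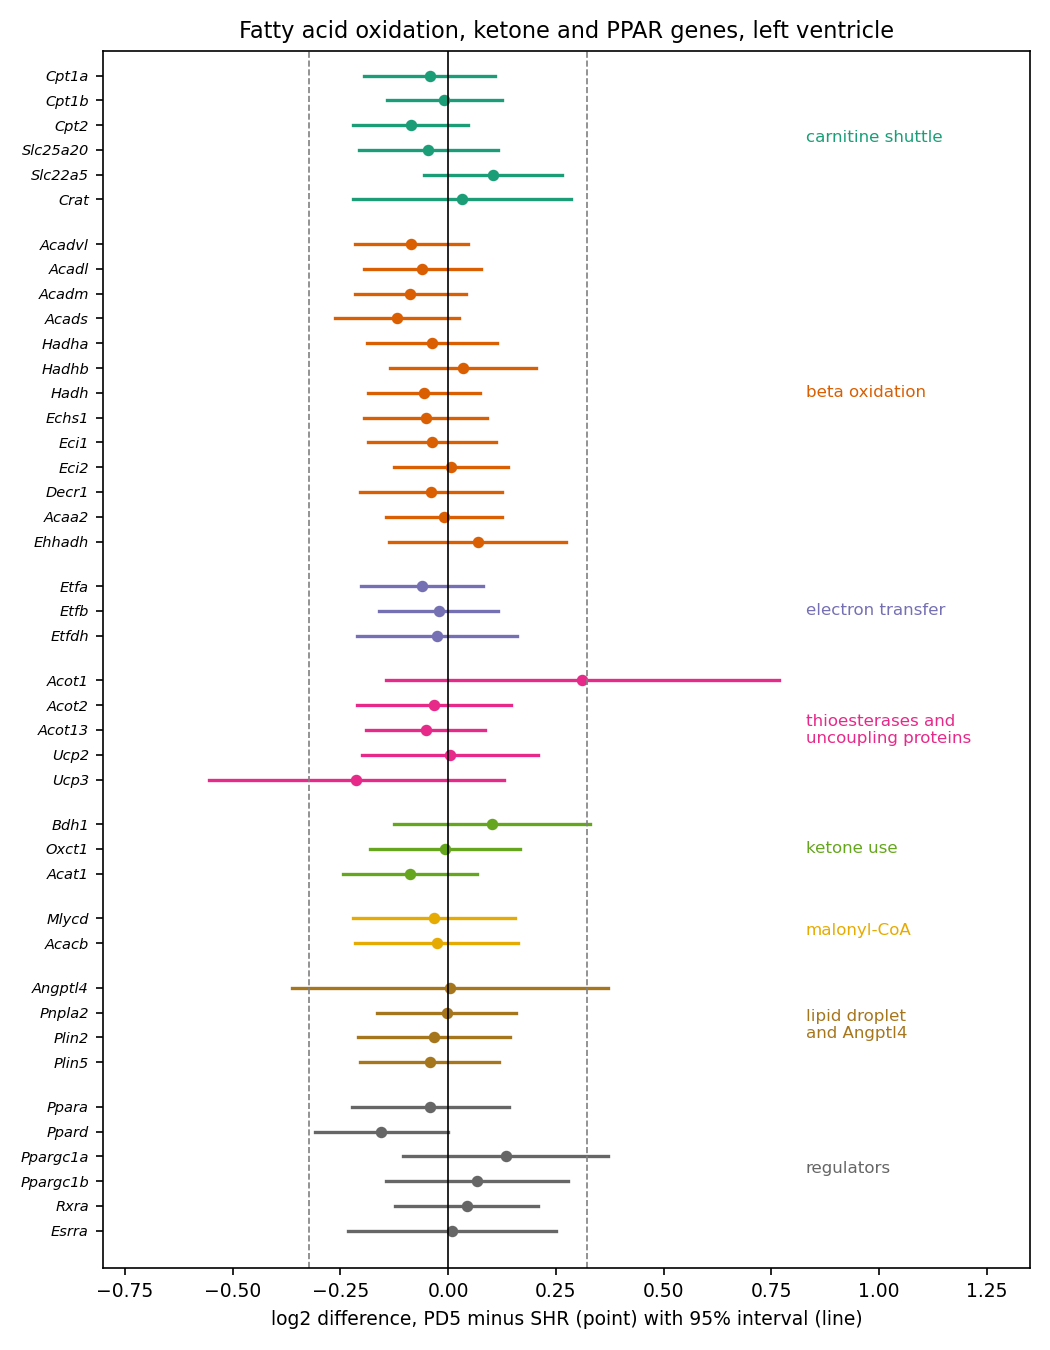
Differences of the 42 genes by pathway step, as log2 PD5 minus SHR (points) with the 95% interval of the limma fit (lines), n = 4 animals per strain. The solid line marks 0 and the dashed lines a 1.25-fold change. All intervals but that of Ppard include 0, and those of Acot1, Ucp3, Angptl4, Ppargc1a and Bdh1 cross a dashed line.

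More of the 42 genes lay below 0 than above it, 29 against 13, or 69.0% below against 49.9% of all genes, with a median of -0.03 against 0.00. The genes share the same 8 animals, so the count is no tally of independent results. SHR 213 was the highest of all 8 animals in 15 of the 42 genes (35.7%, against 11.6% of all genes). Those 15 included Cpt1b, Cpt2, Acadvl, Acadl, Acadm, Hadha, Echs1, Acaa2, Acat1 and the 3 electron transfer genes Etfa, Etfb and Etfdh. Without SHR 213 the median of the 42 genes was -0.0021. PD5 210 was the lowest animal in 13 of the 42 genes (31.0%, against 14.5% of all genes), and without it the median was -0.016. SHR 213 also had the highest mean of the cardiomyocyte markers and PD5 210 the lowest, both by small gaps. SHR 213 was at 12.7166 with PD5 207 at 12.7145, and PD5 210 was at 12.6169 with SHR 219 at 12.6246. A link between these means and the 42 genes was not tested.

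**Figure D2:**
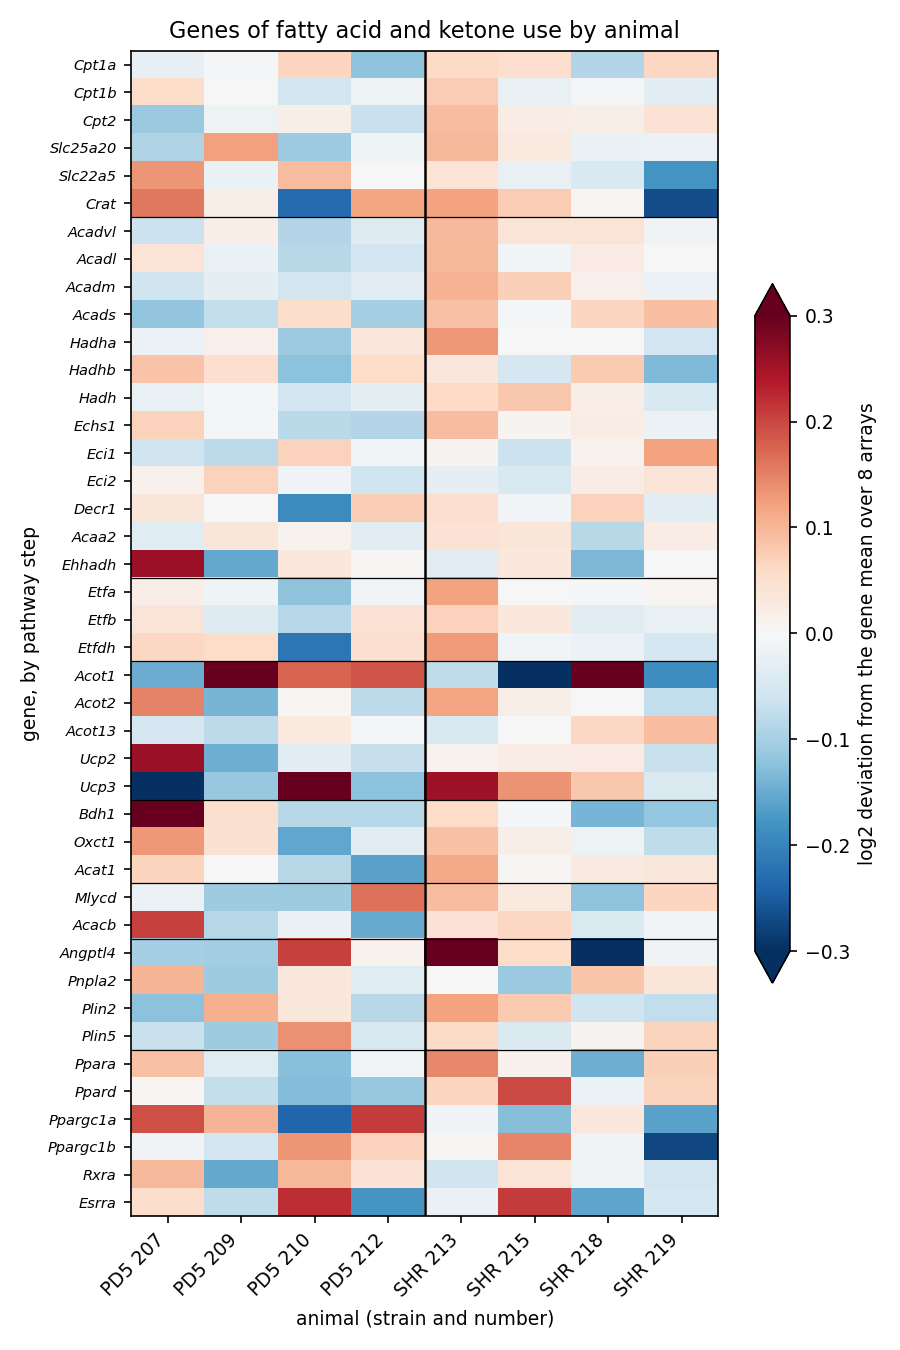
The 42 genes (rows, grouped by step with black lines) in each animal (columns, PD5 left of SHR), coloured by the log2 deviation from the gene's mean over the 8 arrays. SHR 213 is above the mean in most rows, with a median deviation of 0.07, and PD5 210 is below it in many, with a median of -0.045.

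In the carnitine shuttle no gene differed past the threshold, and each interval stayed within a 1.25-fold change. In each list that follows, values are log2 array values of PD5 animals 207, 209, 210 and 212 and of SHR animals 213, 215, 218 and 219, in that order. Cpt2, which releases fatty acids from carnitine inside mitochondria, had values of 10.23, 10.32, 10.36 and 10.27 in PD5, against 10.43, 10.36, 10.36 and 10.38 in SHR. The groups met at 1 value, with PD5 210 level with the lowest SHR animal, and the difference was -0.09 (SE 0.06, 95% interval -0.22 to 0.05). Slc22a5, the carnitine importer of the cell membrane, had values of 8.49, 8.34, 8.46 and 8.36 in PD5, against 8.40, 8.34, 8.32 and 8.18 in SHR. The groups overlapped, with SHR 219 lowest, and the difference was 0.10 (SE 0.07, 95% interval -0.06 to 0.26), or 0.06 without SHR 219. Crat, which buffers acetyl groups on carnitine, had values of 10.62, 10.48, 10.23 and 10.58 in PD5, against 10.58, 10.54, 10.47 and 10.20 in SHR. Its low animals were PD5 210 and SHR 219, 1 in each strain, so the difference of 0.03 (SE 0.11, 95% interval -0.22 to 0.29) hid a within-strain SD of 0.17. It was 0.12 without PD5 210 and -0.05 without SHR 219, so its sign turned with the array left out.

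Cpt1b, the muscle form of the enzyme that commits fatty acids to the mitochondrion, ranged only from 11.81 to 11.94 over all 8 animals, with a difference of -0.01 (SE 0.06). Cpt1a, the form predominant in liver, was at -0.04 (SE 0.07), and Slc25a20, the carrier of acylcarnitines across the inner membrane, at -0.05 (SE 0.07). The median of the 6 shuttle genes was -0.03, with 4 below 0 and 2 above.

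Among the listed beta oxidation enzymes, the acyl-CoA dehydrogenases Acadvl, Acadl, Acadm and Acads had differences below 0, and none passed the test. Acadm, the dehydrogenase of medium-chain fatty acids, had values of 11.72, 11.75, 11.73 and 11.75 in PD5, against 11.89, 11.85, 11.80 and 11.76 in SHR. The PD5 animals lay close together and all below the lowest SHR animal, SHR 219, by a small gap. The difference was -0.09 (SE 0.06, 95% interval -0.22 to 0.04), a 0.941-fold level, with an adjusted p of 0.968 in limma and an exact permutation p of 0.0286, the smallest that 4 against 4 allows and not adjusted for the number of genes. Of its 14 probe sets 11 were below 0 and 3 above, and the brightest of them had a difference of 0.11, above 0.

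Acads, the short-chain dehydrogenase, had values of 9.72, 9.77, 9.89 and 9.74 in PD5, against 9.93, 9.83, 9.90 and 9.93 in SHR. PD5 210 was the high animal of its strain and lay among the SHR animals, and the difference was -0.12 (SE 0.06, 95% interval -0.26 to 0.03), or -0.16 without PD5 210. All 11 probe sets of Acads were below 0. Acadvl, the very-long-chain dehydrogenase, had values of 11.08, 11.17, 11.06 and 11.11 in PD5, against 11.25, 11.19, 11.19 and 11.14 in SHR, and only PD5 209 reached into the SHR range. Its difference was -0.09 (SE 0.06, 95% interval -0.22 to 0.05), or 0.02 with the brightest probe set alone. Acadl, the long-chain dehydrogenase, had values of 12.52, 12.46, 12.40 and 12.42 in PD5, against 12.58, 12.47, 12.50 and 12.48 in SHR. PD5 207 lay above 3 of the 4 SHR animals, and the difference was -0.06 (SE 0.06, 95% interval -0.20 to 0.08), or -0.04 without SHR 213.

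None of the later enzymes of the cycle passed the test. Hadh, which oxidises hydroxyacyl-CoA of short and medium chains, had values of 11.89, 11.91, 11.86 and 11.89 in PD5, against 11.98, 12.00, 11.94 and 11.87 in SHR. SHR 219 lay among the PD5 animals, and the difference was -0.06 (SE 0.06, 95% interval -0.19 to 0.07). The alpha and beta subunits of the trifunctional protein, Hadha and Hadhb, lay on opposite sides of 0, at -0.04 (SE 0.07) and 0.04 (SE 0.07). Hydratase Echs1 was at -0.05 (SE 0.06) and thiolase Acaa2 at -0.01 (SE 0.06). For unsaturated fatty acids, the isomerases Eci1 and Eci2 were at -0.04 (SE 0.07) and 0.01 (SE 0.06) and the reductase Decr1 at -0.04 (SE 0.07). Ehhadh, the bifunctional enzyme of peroxisomes, was at 0.07 (SE 0.09), with PD5 207 highest at 7.42 and the other 7 animals between 7.01 and 7.19. In all, 10 of the 13 beta oxidation genes were below 0, with a median of -0.04, and 0 of them passed the threshold or had an unadjusted p under 0.05 in limma.

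Electron transfer genes, which hand electrons from the dehydrogenases to ubiquinone, had the same highest and lowest animals. Etfa, the alpha subunit of electron transfer flavoprotein, had values of 11.86, 11.83, 11.72 and 11.83 in PD5, against 11.96, 11.84, 11.84 and 11.85 in SHR. SHR 213 was highest and PD5 210 lowest, and the other 6 animals lay close together. The same pair was highest and lowest in Etfb and Etfdh. The differences were -0.06 (SE 0.06, 95% interval -0.20 to 0.08) for Etfa (-0.03 without PD5 210), -0.02 (SE 0.06) for Etfb, the beta subunit, and -0.03 (SE 0.08) for Etfdh, the oxidoreductase that receives their electrons.

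The thioesterases and uncoupling proteins held the widest spread. Acot1, a cytosolic acyl-CoA thioesterase, had values of 3.40, 3.96, 3.72 and 3.74 in PD5, against 3.47, 2.85, 3.89 and 3.36 in SHR. The groups overlapped widely, with SHR 215 lowest, and the difference was 0.31 (SE 0.20, 95% interval -0.14 to 0.77), or 0.13 without SHR 215. It rests on 3 probe sets, all below the cut for dim probe sets at a log2 value of 5.31. Acot1 is also close in sequence to Acot2, its mitochondrial relative, and an array may not keep such copies apart. Acot2 was at -0.03 (SE 0.08) and Acot13, a further thioesterase, at -0.05 (SE 0.06).

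Ucp3, the uncoupling protein of muscle mitochondria and a classical PPAR target, had values of 7.33, 7.72, 8.14 and 7.71 in PD5, against 8.09, 7.97, 7.91 and 7.79 in SHR. PD5 207 was the lowest and PD5 210 the highest of all 8 animals, so the PD5 animals enclosed all 4 SHR animals. The difference was -0.21 (SE 0.15, 95% interval -0.56 to 0.13), and it lay between -0.35 and -0.08 with any 1 array left out. The lower end was reached without PD5 210, the animal with high Ucp1 and Adipoq, and the upper end without PD5 207. Ucp2, the more widely expressed relative, was at 0.004 (SE 0.09).

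Ketone use showed no shared direction. Bdh1, which oxidises beta-hydroxybutyrate, had values of 10.58, 10.31, 10.18 and 10.17 in PD5, against 10.31, 10.26, 10.12 and 10.14 in SHR. PD5 207 stood above the rest, and the difference of 0.10 (SE 0.10, 95% interval -0.13 to 0.33) was 0.01 without it. All 9 probe sets of Bdh1 were above 0. Acat1, the mitochondrial thiolase that ends ketone breakdown, had values of 11.96, 11.89, 11.81 and 11.73 in PD5, against 12.01, 11.89, 11.92 and 11.93 in SHR. PD5 212 was lowest and SHR 213 highest, and the difference was -0.09 (SE 0.07, 95% interval -0.24 to 0.07), or -0.05 without PD5 212. Oxct1, which activates acetoacetate and is the step that lets tissues outside the liver use ketones, was at -0.01 (SE 0.08). The enzymes around malonyl-CoA, the inhibitor of Cpt1, had differences near 0: Acacb, which makes it, was at -0.03 (SE 0.08) over 47 probe sets and Mlycd, which removes it, at -0.03 (SE 0.08).

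Of the 4 lipid droplet genes, Angptl4 had the widest spread. Angptl4, a secreted inhibitor of lipoprotein lipase that PPARs induce, had values of 6.18, 6.18, 6.49 and 6.29 in PD5, against 6.68, 6.34, 5.83 and 6.27 in SHR. SHR 213 was the highest animal and SHR 218 the lowest, with the PD5 animals between them, and the difference was 0.01 (SE 0.16, 95% interval -0.36 to 0.37). Pnpla2, the triglyceride lipase of droplets, was at -0.004 (SE 0.07). The droplet coat proteins Plin2 and Plin5 were at -0.03 (SE 0.08) and -0.04 (SE 0.07).

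**Figure D3:**
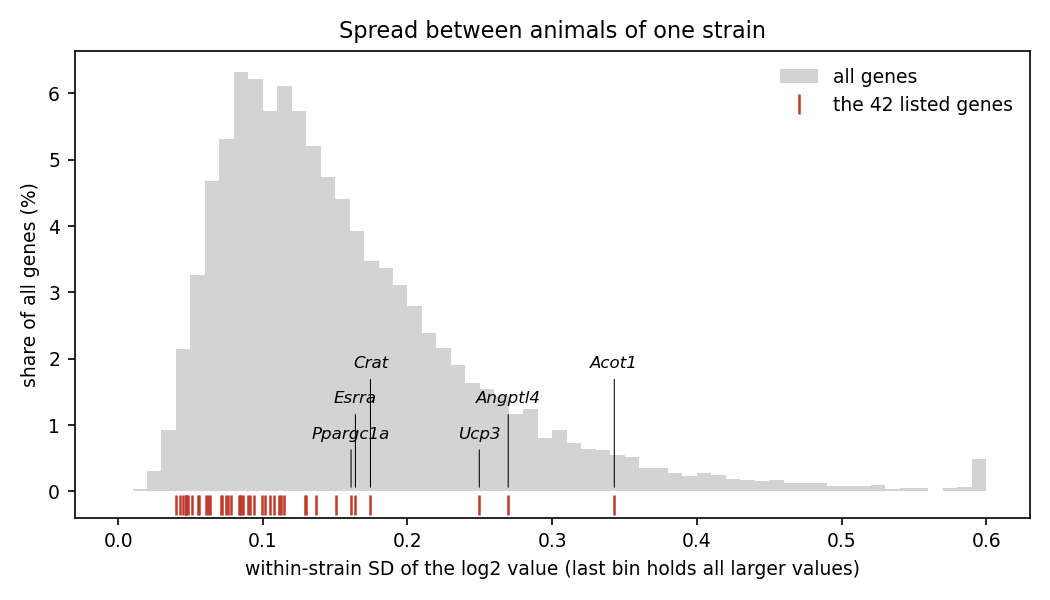
Within-strain SD of the log2 value for all 17309 genes (grey, share of genes per bin) and for the 42 listed genes (red ticks). The 6 listed genes with the widest spread are named; most of the others sit left of the bulk, with a median SD of 0.09 against 0.14 over all genes.

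Among the regulators, Ppard had the smallest p of the 42 genes. Ppard, the PPAR delta receptor that is active in heart and skeletal muscle, had values of 9.39, 9.32, 9.26 and 9.27 in PD5, against 9.45, 9.59, 9.37 and 9.46 in SHR. Only PD5 207 reached into the SHR range, where SHR 218 was lowest. The difference was -0.16 (SE 0.07, 95% interval -0.31 to -0.0013), a 0.898-fold level, with an unadjusted p of 0.0485 and an adjusted p of 0.873 in limma, and an exact permutation p of 0.0571. Of its 11 probe sets 10 were below 0. With the median of the probe sets in place of their mean the difference was -0.085, and with any 1 array left out it lay between -0.19 and -0.12.

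Ppara, the PPAR alpha receptor and main fatty acid sensor of the heart, was at -0.04 (SE 0.08), and its partner Rxra at 0.04 (SE 0.07). Ppargc1a, which encodes PGC-1 alpha, had values of 10.46, 10.36, 10.03 and 10.47 in PD5, against 10.25, 10.13, 10.29 and 10.10 in SHR. 3 PD5 animals lay above all SHR animals and PD5 210 below them all, so the difference of 0.13 (SE 0.11, 95% interval -0.11 to 0.37) was 0.09 without PD5 212 and 0.23 without PD5 210, where its adjusted p in limma was also above the threshold. Ppargc1b, for PGC-1 beta, was at 0.07 (SE 0.09). Esrra, a nuclear receptor that works with PGC-1 on mitochondrial genes, had values of 7.79, 7.66, 7.96 and 7.56 in PD5, against 7.72, 7.95, 7.58 and 7.68 in SHR. Both strains held animals near the top and the bottom of this range, and the difference was 0.01 (SE 0.11). Of the 6 regulators, 2 were below 0 and 4 above, with a median of 0.03.

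The receptors of this list bind DNA through the core motif AGGTCA. RefSeq promoters of build GRCr8 were found for 37 of the 42 genes, and AGGTCA was searched on both strands in the 250 bases before the gene start. It was found in 6 of the 37 genes, or 16.2%, against 14.1% of all 33469 promoters of the same length. The tandem form known as the DR1 element was searched only as a perfect repeat, with a single base between the core motifs. Imperfect DR1 elements were not searched. This perfect form and the extended form TCAAGGTCA, both of which contain the core motif, were found in 0 of the 37 genes. Of all promoters 0.0508% and 0.388% held them, and forms this rare would mostly be absent from so few genes. The matches are shown with the bases around them, 5′ to 3′ on the gene's strand, because they are the matches found in these windows; capitals mark the core motif, read as TGACCT where it lies on the other strand.
Ucp3, chr1:164227735-164227780, plus strand, match starting 155 bases before the gene start: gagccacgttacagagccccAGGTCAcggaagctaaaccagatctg
Ucp3, chr1:164227840-164227885, plus strand, match starting 50 bases before the gene start: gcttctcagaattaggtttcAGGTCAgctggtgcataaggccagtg
Acadvl, chr10:55236849-55236894, minus strand, match starting 169 bases before the gene start: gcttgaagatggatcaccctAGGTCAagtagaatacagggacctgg
Acadvl, chr10:55236706-55236742, minus strand, match starting 17 bases before the gene start: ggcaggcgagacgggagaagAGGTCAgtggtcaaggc
Echs1, chr1:204333574-204333619, minus strand, match starting 93 bases before the gene start: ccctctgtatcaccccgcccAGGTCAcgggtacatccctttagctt
Eci1, chr10:13961136-13961181, plus strand, match starting 94 bases before the gene start: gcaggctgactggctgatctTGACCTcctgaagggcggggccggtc
Plin5, chr9:1033416-1033461, minus strand, match starting 157 bases before the gene start: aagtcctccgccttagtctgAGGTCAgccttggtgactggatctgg
Acacb, chr12:48138344-48138389, minus strand, match starting 155 bases before the gene start: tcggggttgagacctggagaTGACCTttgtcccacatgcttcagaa
A match describes the letters, and binding was not measured. Of these 6 genes, Ucp3 had the widest spread between animals, and the differences between strains ran from -0.21 for Ucp3 to -0.03 for Acacb, none past the threshold.

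Outside the list, 76 further genes of fatty acid, ketone and triglyceride metabolism and of their control were measured, in 7 groups. 0 of the 76 passed over all genes in limma. At an unadjusted p under 0.05, 9 were lower in PD5, which is 11.8%, against 2.91% of all genes, and 0 were higher, against 2.77%. The 9 were Pdk4, Txnip, Slc25a34, Cyp4b1, Lipe, Hsd17b10, Acot9, Slc25a42 and Klf15, Cyp4b1 being named after its value was seen. All 76 genes were listed with earlier results of these data known, so their shares are no independent support. Between 4 and 9 genes were lower at this p when 1 array was left out, 4 without PD5 209 and 5 without SHR 219.

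Among 15 measured genes listed as PPAR responsive, the largest differences were in Pdk4 and Txnip. Pdk4, the kinase that shuts pyruvate out of oxidation and leaves the mitochondrion to fatty acids, had values of 10.38, 10.36, 10.66 and 10.36 in PD5, against 11.14, 10.82, 11.02 and 11.34 in SHR. The groups were apart, with PD5 210 the high animal of its strain, and the difference was -0.64 (SE 0.12, 95% interval -0.91 to -0.37) with an adjusted p of 0.197 in limma. Txnip, a brake on glucose uptake, had values of 11.23, 11.04, 10.77 and 11.02 in PD5, against 11.72, 11.56, 11.51 and 11.73 in SHR. The groups were again apart, and the difference was -0.61 (SE 0.10, 95% interval -0.84 to -0.38) with an adjusted p of 0.128. With a trended robust variance model both passed, at adjusted p of 0.0473 for Pdk4 and 0.0106 for Txnip, where 0.272% of all genes did. Over all settings tried, the adjusted p ranged up to 0.741 for Pdk4 and 0.445 for Txnip. The listed PPAR-responsive genes Ucp3 and Angptl4 varied widely within strains, with SDs of 0.25 and 0.27 and intervals of -0.56 to 0.13 and -0.36 to 0.37. They were among the widest of the 42 genes. The median SD of the 42 was 0.09, and 37 of their intervals lay within a 1.25-fold change. PPAR activity was not tested. Slc25a34, a mitochondrial carrier gene, was at -0.16 (SE 0.06). These 15 genes were listed with earlier results of these data known, so their counts are no independent support, and they also answer to other signals.

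**Figure D4:**
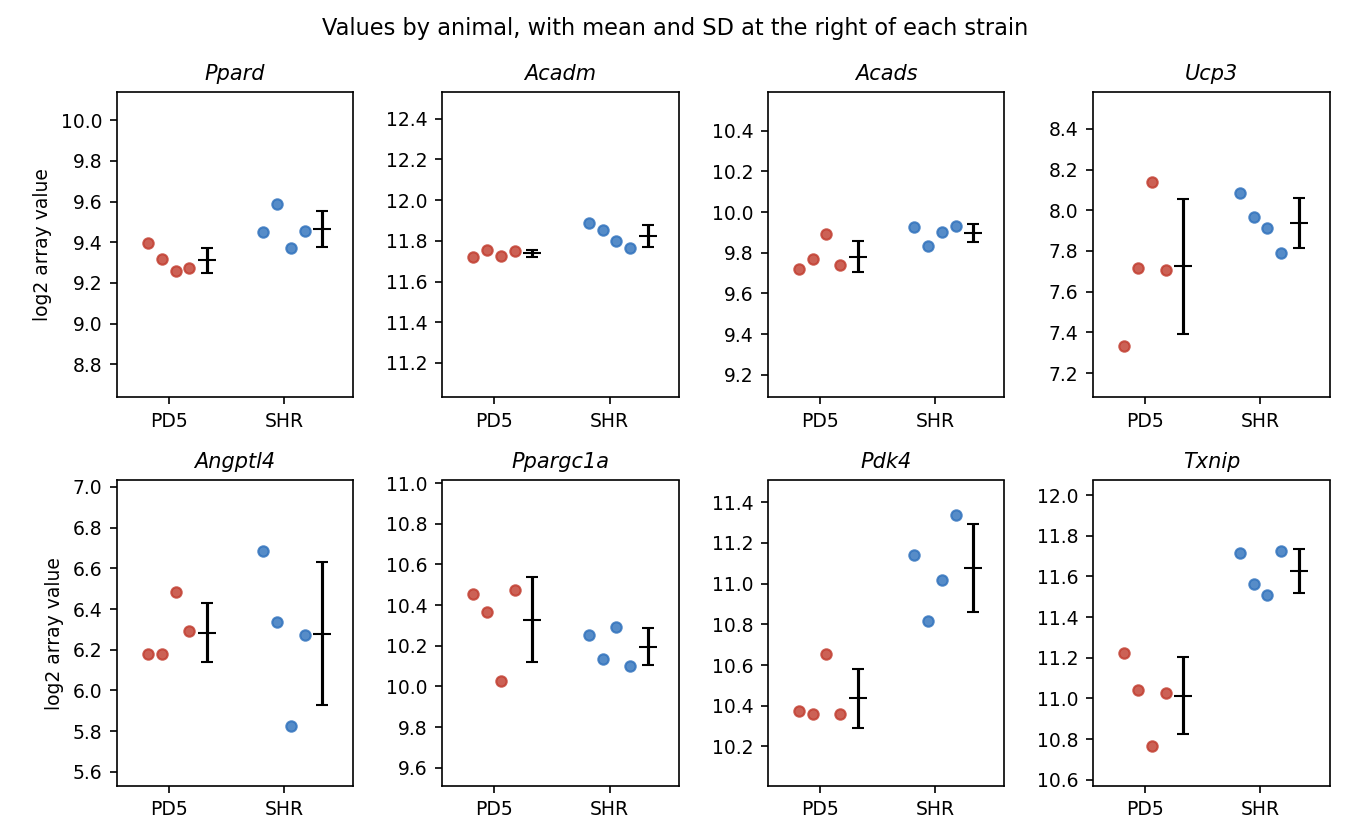
Log2 array values of single animals (points, in order of animal number) for 6 of the listed genes and for Pdk4 and Txnip, PD5 left of SHR, with mean and SD of 4 animals beside them; each panel spans 1.5 on the log2 scale. The groups are apart in Acadm by a small gap and in Pdk4 and Txnip by wider ones, and they overlap in the other panels.

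No gene of the remaining groups passed the threshold. In fatty acid uptake and activation, the genes with the smallest p were Acsl6, an acyl-CoA synthetase, at -0.20 (SE 0.11), the fatty acid transporter Cd36 at -0.19 (SE 0.13) on 2 probe sets, and the binding protein Fabp3 at -0.17 (SE 0.11). These rested in part on single arrays: Acsl6 was at -0.11 without SHR 213, Cd36 at -0.07 without SHR 219 and Fabp3 at -0.05 without PD5 212. In triglyceride turnover, Lipe, the hormone-sensitive lipase, was at -0.17 (SE 0.07), G0s2, an inhibitor of Pnpla2, at 0.19 (SE 0.11) (0.12 without PD5 209), and the fat cell droplet protein Plin1 at 0.31 (SE 0.20), or 0.09 without PD5 210. In peroxisomes, Scp2 was at -0.18 (SE 0.08), Pex11a, which divides peroxisomes, at -0.15 (SE 0.09) (-0.07 without PD5 207) and the bifunctional enzyme Hsd17b4 at -0.07 (SE 0.06).

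Around ketones and acetyl groups, Slc16a1, a transporter of lactate and ketone bodies, was at -0.12 (SE 0.08), the cytosolic thiolase Acat2 at 0.22 (SE 0.16) and Bdh2 at 0.08 (SE 0.11). With 1 array left out, Slc16a1 was at -0.05 without PD5 212, Acat2 at 0.05 without SHR 219 and Bdh2 at -0.01 without SHR 215. Further genes near beta oxidation lay apart between the strains at small size: Hsd17b10, a mitochondrial hydroxyacyl-CoA dehydrogenase, at -0.21 (SE 0.08), the thioesterase Acot9 at -0.20 (SE 0.07), and Slc25a42, a mitochondrial carrier of coenzyme A, at -0.17 (SE 0.07). Of 10 genes measured in that group, these 3 lay apart, all lower in PD5, against 1.88% of all genes. This group too was listed with earlier results known, so the count is no independent support. Among other regulators, Klf15, a transcription factor of lipid and amino acid use, had values of 7.41, 7.15, 7.04 and 7.29 in PD5, against 7.52, 7.50, 7.53 and 8.17 in SHR. SHR 219 was far above the other animals, and the difference was -0.46 (SE 0.16, 95% interval -0.81 to -0.11), or -0.29 without SHR 219. Pparg, the PPAR of fat cells, was at -0.24 (SE 0.11) (-0.16 without SHR 219) and Perm1, a muscle partner of PGC-1, at 0.10 (SE 0.07) (0.06 without SHR 219).

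Single probe sets of the 42 genes also lay more often below 0 than above it, and none passed the threshold. Of 470 probe sets 280 were counted as below 0, or 59.6%, against 50.7% of all probe sets. The 280 include a few with equal means in both strains, as in Ucp3, Oxct1 and Acadl, so somewhat fewer were truly below 0. 0 of the 470 passed over all 220231 probe sets in limma, where 0.000908% did. At an unadjusted p under 0.05, 2 were lower in PD5 (0.426%, against 2.43% of all probe sets), 1 each of Acadm and Ucp3. A further 4 were higher (0.851%, against 2.55%), 1 each of Acacb, Crat, Esrra and Slc22a5. The Acacb probe set was at 6.54 in PD5 and 5.59 in SHR, while the gene over its 47 probe sets was at -0.03.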

How the data were processed

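Total RNA from left ventricular myocardium of 4 PD5 and 4 SHR males was measured on 8 biotin-labelled arrays, and per the labels' protocols only RNA with an integrity number above 8 was used. The authors deposited log2 values of 220231 probe sets, processed with Partek 6.6 per the submitters' processing notes. For background correction, normalization, summary method and genome build, the sources used here give nothing. Values were used as deposited.

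Of the probe sets, 166557 named 1 gene, 1631 several and 52043 none in the platform annotation. Symbols were updated through the RefSeq gene table of GRCr8: 14377 needed no change, 2837 matched a synonym and 95 stayed as annotated. A gene value is the mean of its probe sets, giving 17309 genes with no filter on dim genes. PD5 minus SHR was tested with limma 3.58.1 (lmFit, eBayes; R 4.3.3), two-sided, Benjamini-Hochberg over all genes, and single genes also with an exact permutation test (SciPy 1.17.1). The functions were tested on simulated data. The number of arrays limits the precision, and p-values rest on the spread between these animals. In the main limma fit the spread of each gene is drawn toward a value common to all genes. SEs of genes with little spread are thereby widened: Acadm had a within-strain SD of 0.04 and an SE of 0.06.

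The listed genes, the other gene lists and the alternatives were chosen with earlier results of these data known. By a fixed rule, all 42 genes are named, values of every array are given for the 14 with the smallest p and the 6 with the largest within-strain SD (17 genes), and 3 genes by smallest p for each of 7 further lists. Marker lists covered cardiomyocytes, atrium, brown and white fat, endothelium, fibroblasts, macrophages, skeletal muscle and liver. Alternatives were other probe set summaries, filters on dim probe sets or genes, other scalings, other variance models and leaving out arrays. No sample columns were left unused.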

Additional observations from a re-analysis of the deposited data

Results flagged for a closer look

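In 8 of 94 groups of 4 animals, 1 animal lay far from the other 3, where chance gives about 4.7 (1 in 20 groups). The 42 genes supplied 84 of the 94 groups and 6 of the 8. The groups share the same 8 animals, and whether the 42 genes held an excess was not tested. Cpt1a was low in SHR 218, at 9.14, while the other SHR animals lay between 9.28 and 9.29. Hadhb was low in PD5 210, at 11.99, while the other PD5 animals lay between 12.17 and 12.20. Acaa2 was low in SHR 218, at 12.39, while the other SHR animals lay between 12.49 and 12.51. Etfa was high in SHR 213, at 11.96, while the other SHR animals lay between 11.84 and 11.85. Etfdh was low in PD5 210, at 10.92, while the other PD5 animals lay between 11.18 and 11.20. Ucp2 was low in SHR 219, at 11.45, while the other SHR animals lay between 11.53 and 11.54. Pdk4 was high in PD5 210, at 10.66, while the other PD5 animals lay between 10.36 and 10.38. Klf15 was high in SHR 219, at 8.17, while the other SHR animals lay between 7.50 and 7.53.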

How the results depend on the processing

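Over 17 alternative settings, 0 of the 42 genes passed the adjusted threshold in any, and the lowest adjusted p was 0.683. The median difference of the 42 genes lay between -0.042 and -0.0021, and 22 to 33 of them were below 0. In 26 genes the sign differed under at least 1 setting, all of them with a difference of at most 0.09 in size. No paired analysis was possible because the strains share no animal number. The step medians that moved by more than the spread between animals were those of lipid droplet genes, at -0.09 with the median of the probe sets, and of malonyl-CoA genes, at 0.0525 with the brightest probe set. The count of genes lower at an unadjusted p under 0.05 in limma was 1 (2.38%, against 2.91% of all genes). It became 0 with the median of the probe sets or the brightest probe set. With a trended robust variance it was 3 (7.14%, against 2.95%). With 1 array left out it ranged from 0 to 2. It was 2 without PD5 210 (4.76%, against 3.25%) and 0 without PD5 209, PD5 212, SHR 213, SHR 215 or SHR 219. Higher genes at this p numbered 0, against 2.77% of all genes, and 0 to 1 with 1 array left out. The count was 1 (2.38%) without PD5 210 or SHR 218, against 2.76% and 3.13% of all genes. It was also 1 without both PD5 210 and SHR 219, against 2.5%. Genes with the PD5 animals all below the SHR animals numbered 1 to 5 with 1 array left out. There were 5, or 11.9%, without PD5 207 or PD5 210, where 3.27% and 3.94% of all genes did so. There were 3, or 7.14%, without SHR 218 or SHR 219, against 4.25% and 3.01%. There were 2, or 4.76%, without PD5 209 or SHR 215, against 3.08% and 3.15%. Quantile normalization also gave 2, or 4.76%, against 1.97%. Without both PD5 210 and SHR 219 there were 7, or 16.7%, against 5.45%. Genes all above numbered 0 to 1 with 1 array left out. There was 1, or 2.38%, without PD5 209, PD5 210 or SHR 213, against 2.76%, 3.09% and 3.06% of all genes. Without both PD5 210 and SHR 219 there was also 1, against 4.79%. Of the 76 other genes, 9 were lower at that p, 5 with the median of the probe sets and 4 to 9 with 1 array left out, and the number past the adjusted threshold was 0, or 2 with a trended robust variance (Pdk4 and Txnip). The cause of these shifts was not tested. With dim genes or dim probe sets left out, 41 of the 42 genes remained, Acot1 being the one removed. Over all genes 9 passed, 0 with the brightest probe set, 5 with quantile normalization, 47 with a trended robust variance, 1 to 7 with 1 array left out and 0 without PD5 210 and SHR 219. The deposited values carry no measure of signal over background.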

Other observations

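Of the 4 liver markers measured, Alb, the albumin gene, and Serpina1, an antiprotease gene, varied most between animals. Alb was highest in PD5 207 and PD5 209, at 9.50 and 9.61, and in SHR 215, at 9.42. In the other animals it was at 6.20 to 7.99 in PD5, against 7.33 to 8.39 in SHR. Serpina1 was also highest in those animals, at 5.83 in PD5 207, 5.86 in PD5 209 and 5.95 in SHR 215. The other markers did not follow this order throughout. Ttr, the transthyretin gene, was at 9.19 in PD5 207 and 8.51 to 8.68 in the other PD5 animals, against 8.55 to 8.81 in SHR. Fgb, a fibrinogen gene, was at 5.84 and 5.95 in PD5 207 and PD5 209 and at 5.70 in PD5 210, against 5.67 in SHR 215. The limma differences were 0.09 (SE 0.74) for Alb and -0.05 (SE 0.26) for Serpina1, neither past the threshold.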
